A study of Castanea mollissima with 18 samples.

Results

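Somatic embryos 8, 9 and 10 of Chinese chestnut (Castanea mollissima) are 3 of 18 RNA sequencing libraries from tissue culture, and 3 of the 12 that are labelled somatic embryo. They were compared with the other 9 somatic embryo libraries, numbered 1 to 7, 11 and 12. The remaining 6 libraries are labelled callus and were left out of the contrast. No genotype, treatment, stage or time in culture is spelled out for any of them, and nothing says that libraries came from separate cultures. All 18 sample titles share short codes, ys among them, which the labels used here do not explain.

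The 3 libraries were chosen from these same values: they lay closest to each other when all libraries were clustered on their expression. Every difference between them and the other 9 is therefore a description, and no test was made of any.

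Somatic embryos arise in culture from body cells and not from a fertilised egg, often by way of callus, a mass of dividing cells without organised form. Like the embryos of seeds, they pass from an early phase of patterning and division to a later phase in which storage reserves build up and tolerance of drying is acquired. In bulk tissue, fewer cells of a type and less RNA per cell cannot be told apart.

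The values are FPKM, sequenced fragments corrected for how long a gene model is and for how many fragments its library had. Gene IDs carry no names in the deposited table, so 4 genes are given by ID and the others by rank, level and count. Of 33991 IDs, 20967 reached 1 FPKM in at least 3 of the 12 somatic embryo libraries and were analysed. Markers of embryo stages or of other cell types could not be matched to IDs, so the label of the tissue was not checked against them.

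Somatic embryos 8, 9 and 10 resembled each other more than any of them resembled another library. Spearman's correlation across the analysed genes was 0.964 between 8 and 9, 0.979 between 8 and 10 and 0.986 between 9 and 10. Just outside this set, the highest correlation with any of the other 9 was 0.886, between somatic embryos 10 and 1. The lowest was 0.793, between somatic embryos 9 and 4. Over the 27 pairs that join the 3 to the 9 the mean was 0.847, and over the 36 pairs among the 9 themselves it was 0.919, with a range of 0.878 to 0.996. Among callus libraries the nearest to each of the 3 was callus 3, at 0.837 for somatic embryo 8, 0.843 for 9 and 0.848 for 10. These values exceed the correlation of somatic embryo 9 with somatic embryos 3 to 7, of 10 with 4 to 7, and of 8 with 4. Callus 3 lay closer to somatic embryos 1, 3, 5, 6, 7 and 12, at 0.855 to 0.890, than to any of the 3. Its correlation with somatic embryos 2, 4 and 11 was lower, at 0.812 to 0.823. Callus 1, 2 and 6 correlated with the 3 libraries at 0.757 to 0.774. These correlations run across genes, which are not independent replicates.

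A single transcript dominated somatic embryos 8, 9 and 10. Cm05G02712.gene stood at 20334 FPKM in somatic embryo 8, at 19023 in 9 and at 17704 in 10, and was the most abundant gene in each. In the other 9 libraries it ranged from 322 FPKM in somatic embryo 1 to 2209 in somatic embryo 7, with a median of 1658, so the groups lay far apart. Its mean was 19020.5 ± 1315 FPKM (SD, n = 3) in the 3 libraries against 1316 ± 793 FPKM (SD, n = 9) in the rest. The ratio of these means was 14.5, and the difference in mean log2(FPKM + 1) was 4.17. The lowest of the 3 was 8.01 times the highest of the 9.

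Among the 9, this gene split the libraries. It was at 1658 to 2209 FPKM in somatic embryos 2, 5, 6, 7 and 11, but at 647 in 3, 545 in 4, 506 in 12 and 322 in 1. Its rank ran from 11 to 468 there. Callus held it at 4280 to 13612 FPKM, above all of the other 9 somatic embryo libraries and below all of the 3, and it was the most abundant gene of callus 3 as well.

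**Figure D1:**
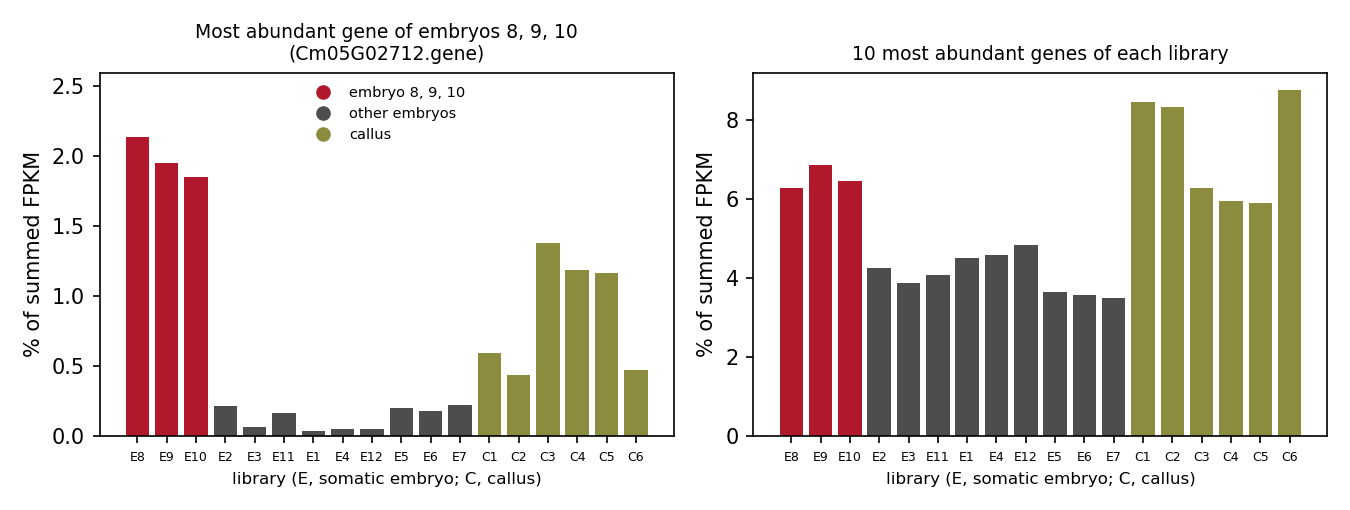
Bars give the percentage of a library's summed FPKM held by Cm05G02712.gene (left) and by the 10 most abundant genes of that library (right), for somatic embryos (E) and callus (C). The gene holds 1.85% to 2.14% in embryos 8, 9 and 10 and at most 0.222% in the other embryos. In callus the 10 most abundant genes hold 5.91% to 8.76%.

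Expression was more concentrated at the top in somatic embryos 8, 9 and 10 than in the other 9, though not than in callus. The 10 most abundant genes of somatic embryos 8, 9 and 10 held 6.28%, 6.85% and 6.44% of the summed FPKM. In the other 9 these shares were 3.49% to 4.85%, without overlap, and in callus 5.91% to 8.76%. On average the top 10 held 6.52% ± 0.296 (SD, n = 3) in the 3 against 4.10% ± 0.488 (SD, n = 9) in the 9, which is 2.43 percentage points more. Cm05G02712.gene alone held 1.98% ± 0.145 (SD, n = 3) against 0.132% on average. This gene was then set aside in every library and the next gene taken in its place. The top 10 then held 4.40% in somatic embryo 8, within the range of the other 9. They held 5.23% in 9 and 4.86% in 10, above the highest of the other 9 at 4.85%. The excess was 1.25 percentage points for the most abundant gene of each library, 2.43 for the top 10 and 2.83 for the top 100, but -0.66 for the top 1000. The 100 most abundant genes held 19.7% ± 1.17 (SD, n = 3) against 16.9% ± 1.36 (SD, n = 9) and overlapped, and the 1000 most abundant held 50.3% ± 1.89 (SD, n = 3) against 51.0% ± 1.76 (SD, n = 9).

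The identity of the most abundant genes differed too. Of the 10 genes with the highest mean in somatic embryos 8, 9 and 10, each of these 3 libraries had 9 in its own top 10, while the other 9 libraries had 1 to 3. In 8 of the 10 all 3 libraries lay above all 9, as they did in 17.0% of all analysed genes; ranking by the mean of the 3 favours genes that are high in them. The second gene stood at 9198 to 9637 FPKM against 1779 to 3856, the fifth at 3620 to 4382 against 1103 to 2150, and the seventh at 3010 to 3610 against 859 to 1625. The third, at 7011 to 8697 FPKM against 3484 to 6912, was abundant everywhere, and the fourth overlapped between the groups. Of the 100 genes with the highest means in the 3, 65 were also among the 100 highest of the 9.

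A gene was called higher or lower where the ranges of the 3 and the 9 libraries did not overlap and the means of log2(FPKM + 1) differed by at least 1, which is 2-fold on that scale. By this rule 1785 genes were higher in somatic embryos 8, 9 and 10 (8.51% of those analysed) and 1324 were lower (6.31%), 3109 (14.8%) in all. These shares are themselves the background, and since the libraries were grouped on these genes nothing is read from their size. The median difference was 1.56 among higher genes and -1.61 among lower genes, beside 0.054 over all analysed genes. A difference of at least 2 was reached by 540 higher and 401 lower genes, of at least 3 by 162 and 128, and of at least 4 by 27 and 30.

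The surplus of higher over lower genes depended on the scale and on the libraries used. After median-of-ratios scaling 1542 genes were higher and 1503 lower, and on the TPM scale, where every library has the same sum, 1959 and 1231. With 1 of the 3 left out and the filter applied anew, the numbers were 1632 and 1820 without somatic embryo 8, 1625 and 1353 without 9, and 1634 and 1350 without 10. At any fold, 3560 genes lay wholly above (17.0%) and 2282 wholly below (10.9%). These numbers were 3168 and 2917 after median-of-ratios scaling and 3946 and 2028 on the TPM scale.

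**Figure D2:**
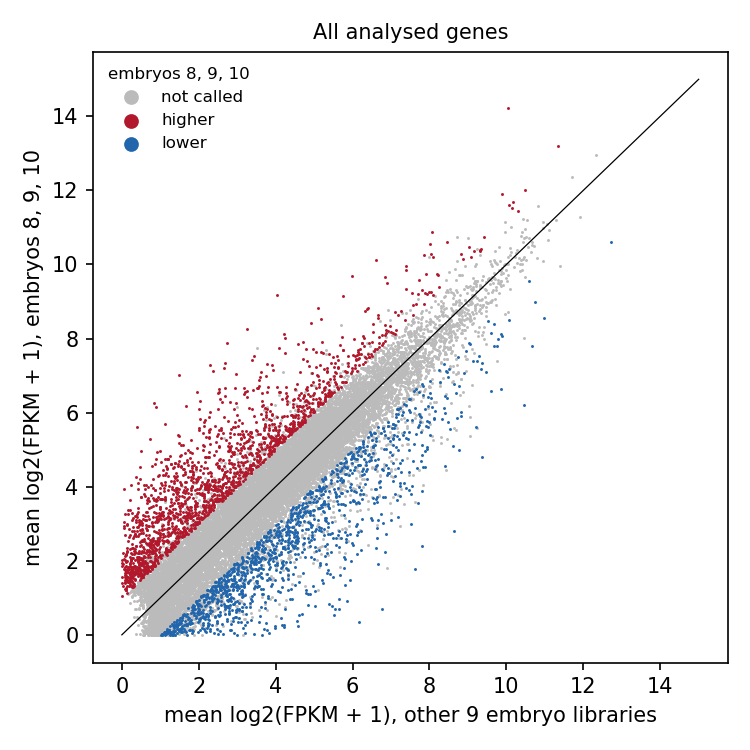
Each point is 1 of the 20967 analysed genes, with its mean log2(FPKM + 1) in the other 9 embryo libraries on the horizontal axis and in embryos 8, 9 and 10 on the vertical axis; the line marks equal levels. The 1785 higher genes (red) and 1324 lower genes (blue) spread over the whole range of levels, with Cm05G02712.gene as the topmost point.

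Called genes were found at all levels of expression. Among 5875 genes with a mean under 5 FPKM over the 12 libraries, 12.5% were higher and 5.34% lower. Among 11044 genes at 5 to 50 FPKM the shares were 7.53% and 6.21%, and among 4048 genes at 50 FPKM or more they were 5.36% and 8.00%. Since 9 of the 12 libraries in this mean are the comparison group, a higher gene tends to fall into a lower class and a lower gene into a higher one, and no relation to level is read from these shares. The filter asks for 1 FPKM in 3 libraries, so a gene can pass through somatic embryos 8, 9 and 10 alone. In 287 analysed genes none of the other 9 reached 1 FPKM. The filter alone set the ranges of such genes apart, though not by 2-fold, and 237 of them were among the 1785 higher genes. In 1107 analysed genes none of the 3 reached 1 FPKM, and 257 of them were among the 1324 lower genes.

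Near on-off differences were few. In 31 genes all 3 libraries reached 5 FPKM while all 9 stayed under 1 FPKM, and in 8 genes the reverse held. More libraries have to reach 5 FPKM in the reverse case, and the directions cannot be weighed against each other by these counts. Many called genes were separated by a small step only: between the nearest libraries of the groups the median gap was 0.69 (log2) for higher and 0.53 for lower genes. A gap of at least 1 was found in 559 higher and 274 lower genes.

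The called genes held a sizeable part of the summed FPKM. The 1785 higher genes held 15.7% to 16.6% of the summed FPKM in somatic embryos 8, 9 and 10 and 3.68% to 5.10% in the other 9. Their summed excess (mean of the 3 minus mean of the 9) came to 109481 FPKM. Cm05G02712.gene made up 16.2% of it, and the 10 genes with the largest excess made up 36.4%. The 1324 lower genes held 2.24% to 2.51% in the 3 libraries and 7.74% to 11.9% in the 9, and 10 genes made up 22.1% of their deficit. Selection for these directions fixes that the groups differ here, and the values describe by how much.

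The largest difference among higher genes was that of Cm07G01963.gene. It stood at 99.2 FPKM in somatic embryo 8, at 178 in 9 and at 121 in 10. In the other 9 libraries it ranged from 0.27 FPKM in somatic embryo 4 to 5.90 in 11, with a median of 1.19. The levels were therefore high in all 3 libraries and low but mostly measurable in the rest. The mean was 133 ± 40.7 FPKM (SD, n = 3) against 2.41 ± 2.26 FPKM (SD, n = 9), with a ratio of 55.0 and a log2 difference of 5.54. Callus had next to none, at 0 to 0.04 FPKM.

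The largest difference among lower genes was that of Cm05G01364.gene. It stood at 1.70 FPKM in somatic embryo 8, at 0.14 in 9 and at 0.38 in 10, and from 76.2 FPKM in somatic embryo 12 to 204 in 3 in the other 9, with a median of 91.8. The nearest libraries of the groups were 44.8-fold apart. The mean was 0.74 ± 0.84 FPKM (SD, n = 3) against 114 ± 44.0 FPKM (SD, n = 9), with a ratio (9 over 3 libraries) of 153 and a log2 difference of -6.06. Somatic embryo 8 carried most of the mean of the 3, and without it the ratio was 437. Both ratios divide by a low mean, 0.74 or 0.26 FPKM, and read depth is not known, so their size is uncertain. The log2 difference became -7.50 with a pseudocount of 0.1. In callus it was also low, at 0.13 to 0.36 FPKM, a level that somatic embryos 9 and 10 shared or nearly shared.

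In absolute terms the deepest deficit was that of Cm11G01270.gene, the most abundant gene in 6 of the other 9 libraries. It stood at 1530, 1529 and 1584 FPKM in somatic embryos 8, 9 and 10, a narrower spread relative to its level than in any other named gene. In the other 9 it ranged from 3656 FPKM in somatic embryo 2 to 8629 in 5, with a median of 7598. The mean was 1548 ± 31.3 FPKM (SD, n = 3) against 6957 ± 1674 FPKM (SD, n = 9), with a ratio (9 over 3 libraries) of 4.49 and a log2 difference of -2.12. It ranked 31 to 41 in the 3 libraries and 1 to 8 in the 9. Callus had the highest levels, at 11798 to 13592 FPKM.

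**Figure D3:**
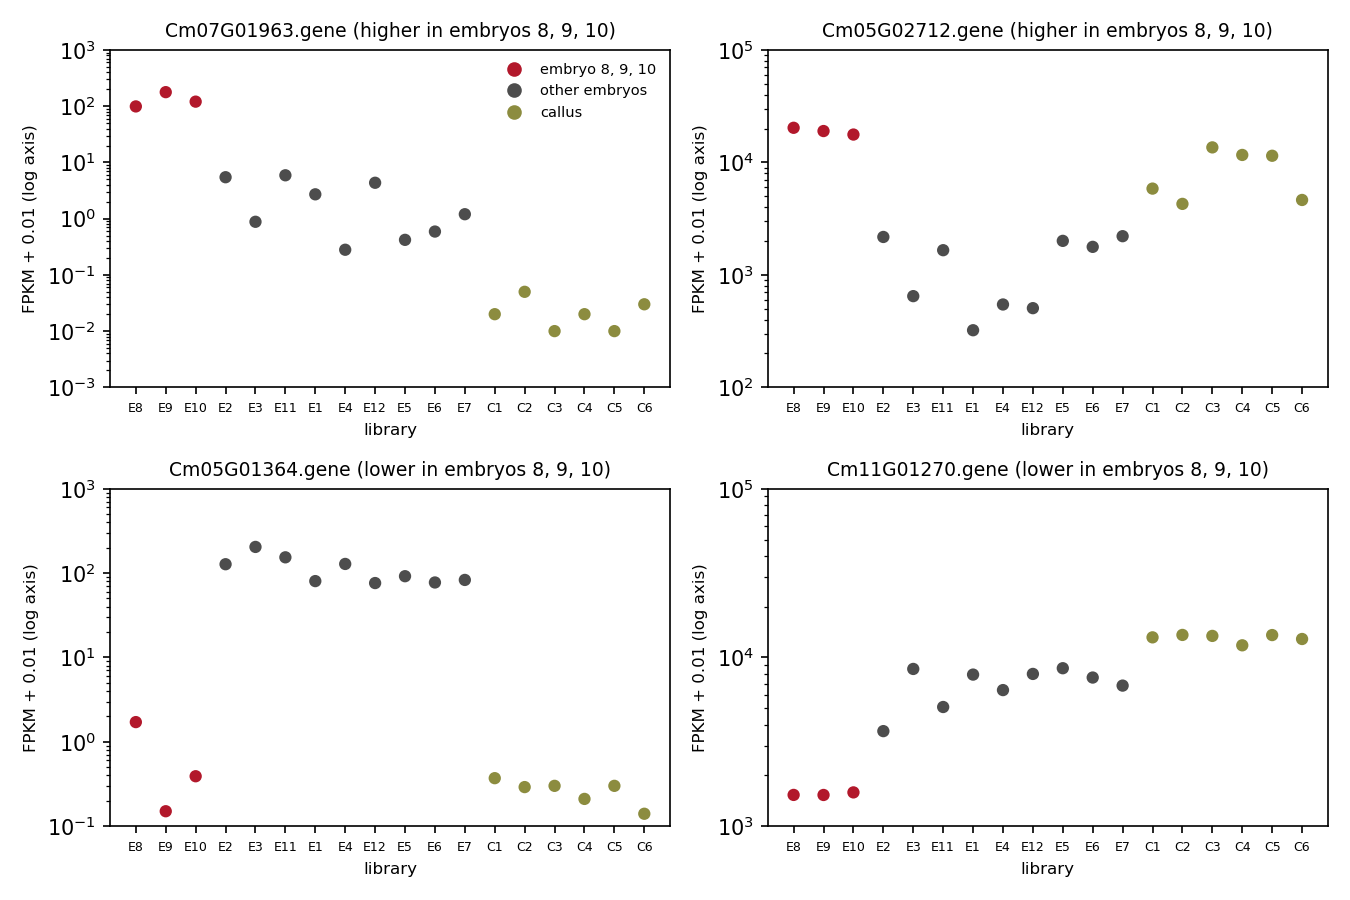
FPKM of the 4 named genes in each library, on a log axis after adding 0.01 so that values of 0 can be drawn; each point is 1 library. Embryos 8, 9 and 10 (red) lie apart from the other embryos (grey) in all 4, while callus lies lowest in Cm07G01963.gene, beside embryos 9 and 10 in Cm05G01364.gene, between the groups in Cm05G02712.gene and highest in Cm11G01270.gene.

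The 9 comparison libraries were not alike, and the count of differences depended on which of them were used. Against somatic embryos 5, 6 and 7 alone, 2577 genes were higher (12.3%) and 3178 lower (15.2%). Against somatic embryos 2, 3 and 11 alone the numbers were 2853 (13.6%) and 2116 (10.1%), and against 1, 4 and 12 alone 2375 (11.3%) and 2147 (10.2%). These comparisons share somatic embryos 8, 9 and 10. They also rest on 3 libraries each, where ranges overlap less often than with 9, and the sets themselves come from clustering. Relative to each set, the median over all genes lay at 0.017, 0.19 and -0.013, and the 0.19 against 2, 3 and 11 moves with the number of higher genes in that comparison. Its part in that number was not tested.

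No single library of the 9 set the limits. In the 1785 higher genes the library nearest to the 3 was most often somatic embryo 12 (18.4%) and least often 3 (4.71%). In the 1324 lower genes it was most often somatic embryo 2 (28.2%), followed by 12 (19.5%), and least often 7 (2.95%).

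Callus took no part in the contrast, and its levels in these genes are given beside the others. The genes were picked for somatic embryos 8, 9 and 10 lying outside the range of the 9, which by itself tends to place any further group nearer to the 9. The median level of the higher genes, in log2(FPKM + 1), was 4.01 to 4.11 in somatic embryos 8, 9 and 10, 1.90 to 2.29 in the other 9 and 2.26 to 2.57 in callus. That of the lower genes was 2.09 to 2.31 in the 3, 3.85 to 4.39 in the 9 and 3.57 to 3.93 in callus. Over all analysed genes the medians were 3.80 to 3.94 in the 3, 3.61 to 3.88 in the 9 and 3.91 to 3.93 in callus.

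**Figure D4:**
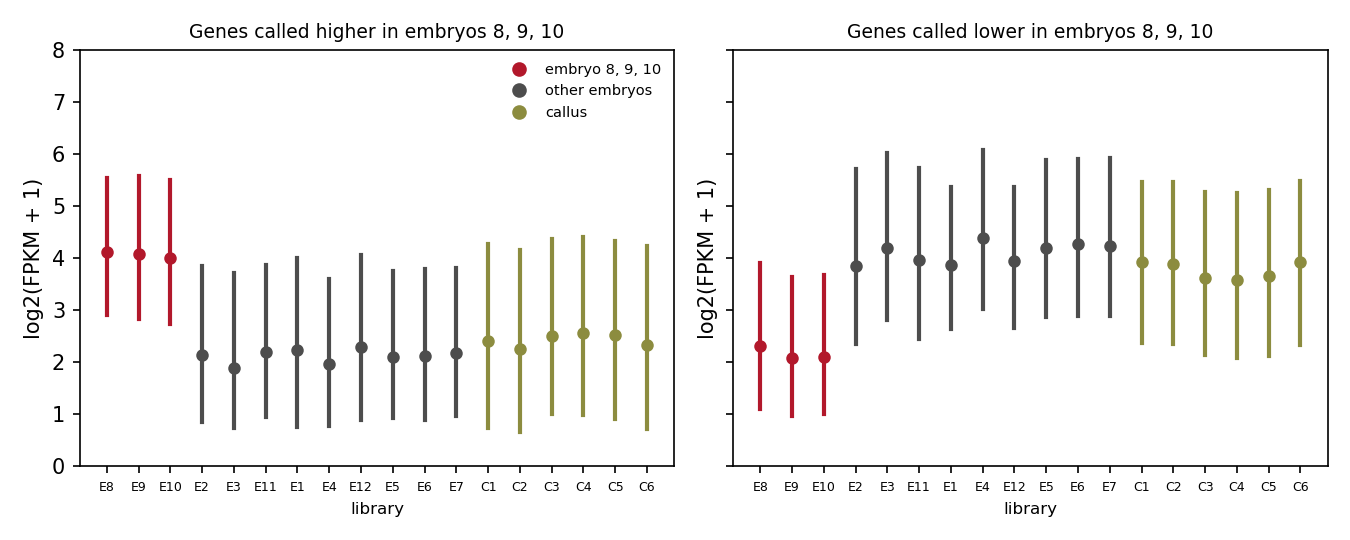
Points are the median and bars the interquartile range of log2(FPKM + 1) over the 1785 higher genes (left) and the 1324 lower genes (right) in each library. Callus medians run from 2.26 to 2.57 and from 3.57 to 3.93; the genes were picked for embryos 8, 9 and 10 lying outside the range of the other embryos, which bears on where callus falls.

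Somatic embryos 8, 9 and 10 were not equally alike. The median gene had an SD of 0.15 (log2) among them, against 0.42 among the other 9. In sets of 3 it was 0.09 among somatic embryos 5, 6 and 7, 0.25 among 2, 3 and 11 and 0.26 among 1, 4 and 12. At least 2-fold apart between the lowest and the highest of the 3 were 1382 genes (6.59%). The pairs with somatic embryo 8 differed most: 1144 genes differed 2-fold between 8 and 9 and 766 between 8 and 10, but 357 between 9 and 10. These differences went mainly one way, with 958 of the 1144 and 740 of the 766 higher in somatic embryo 8. The median over all genes (log2) was 0.078 higher in 8 than in 9 and 0.042 higher than in 10. Somatic embryo 8 also had the most genes at 1 FPKM or more, 19911 against 19091 in 9 and 19328 in 10, and 18555 to 19597 in the other 9 libraries.

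In 586 genes somatic embryo 8 lay at least 2-fold above both 9 and 10, while only 3 genes lay 2-fold below both. For somatic embryo 9 these numbers were 54 and 200, and for 10 they were 18 and 24. In the 586 genes the median of somatic embryo 8 lay within the span of the medians of the other 9. Their median log2(FPKM + 1) was 3.98 in somatic embryo 8, 1.79 in 9 and 2.28 in 10, and 2.71 to 4.77 in the other 9. In 413 of them (70.5%, beside 60.1% of all analysed genes) somatic embryo 8 lay within the range of the 9. In 277 (47.3%, beside 15.0% of all analysed genes) both 9 and 10 lay below all 9. Both conditions held in 220 genes. The 586 genes were picked for low values in 9 and 10, which by itself raises the share of genes where these lie lowest. The same choice asks for a high value in somatic embryo 8, so these medians and shares describe the list only.

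**Figure D5:**
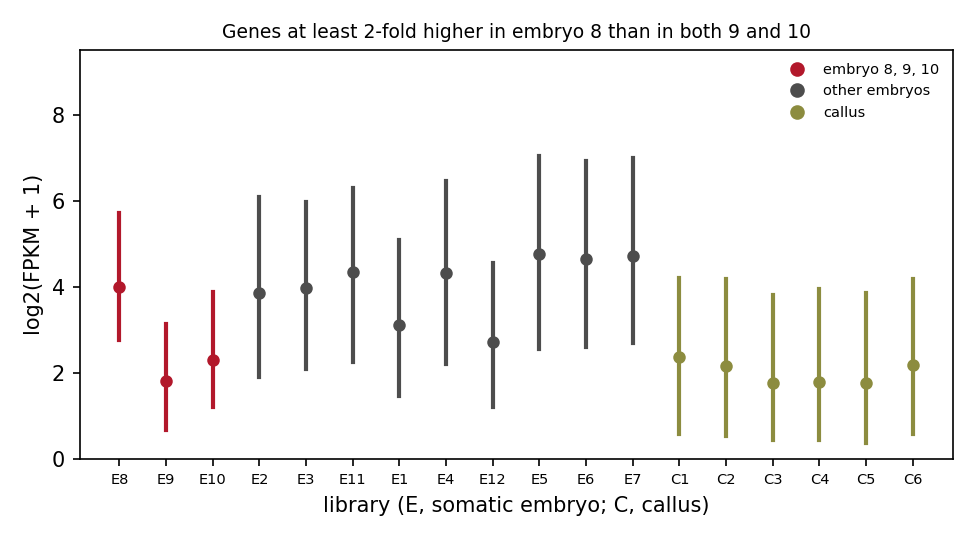
Points are the median and bars the interquartile range of log2(FPKM + 1) over the 586 genes that lay at least 2-fold higher in embryo 8 than in both 9 and 10. Embryo 8, at 3.98, lies among the other embryos (2.71 to 4.77), and embryos 9 and 10, at 1.79 and 2.28, lie in the range of callus (1.77 to 2.36). The genes were picked for embryo 8 lying above 9 and 10, which bears on where these medians fall.

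In the lower genes somatic embryo 8 was often the highest of the 3, and so the nearest to the other 9. Over all analysed genes it also had a median difference (log2) of 0.078 to 9 and 0.042 to 10. The share of all analysed genes in which it was highest was not computed, so no nearness particular to lower genes is read from these counts. Of the 1324, the library of the 3 nearest to the other 9 was somatic embryo 8 in 54.8%, 9 in 25.5% and 10 in 19.7%. Among the 128 lower genes with a difference of at least 3 it was somatic embryo 8 in 92 (71.9%). The median of these 128 was 5.26 FPKM in somatic embryo 8, 2.12 in 9 and 2.62 in 10, and 69.2 FPKM for the mean of the other 9. The farthest from the 9 was somatic embryo 8 in 25.2%, 9 in 45.8% and 10 in 29.0% of the lower genes. In the higher genes somatic embryo 8 was nearest to the 9 in 36.4%, 9 in 28.8% and 10 in 34.8%, and the farthest was 8 in 41.9%, 9 in 39.7% and 10 in 18.4%. The 162 higher genes with a difference of at least 3 had medians of 36.7, 39.9 and 37.2 FPKM in 8, 9 and 10 and of 2.77 FPKM in the mean of the 9. Of these 162 genes, 57 reached 50 FPKM in all 3 libraries.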

How the data were processed

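RNA was sequenced from strand-specific libraries, per the labels' protocols. The authors deposited FPKM values with 2 decimals. Per the submitters' processing notes, FastQC 0.11.9, Trimmomatic and STAR 2.7.10b were used; how FPKM were computed and with which genome build and annotation is not given in the sources used here. Of 213 columns, 18 matched a labelled sample and 195 were not used. Read depth is unknown: ratios of low values (0.3 to 1 FPKM) in 4 pairs of libraries fell on whole-number steps (up to 3, within 0.02 log2) in at most 14.0% of genes, so reads were not recovered and no counting interval is given.

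Values were transformed to log2(FPKM + 1), which understates the change of low genes. FPKM shares a library total, so a rise in abundant genes lowers the others. No p-value was computed, because the libraries were grouped on these values. The members and lists were chosen with earlier results of these data known. The planned gene lists could not be matched to IDs and were not run. The named genes are, in each direction, the called gene with the largest log2 difference and that with the largest difference in mean FPKM. Alternatives were other pseudocounts (0.1, 0.01), filters, scalings and call rules, subsets of the 9, and leaving out each library. The most identical values in any pair of the 12 libraries were 0.720% of genes, and all were counted. Python 3.11.15, NumPy 2.4.6, pandas 2.3.3, SciPy 1.17.1 and Matplotlib 3.10.9 were used.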

Additional observations from a re-analysis of the deposited data

How the results depend on the processing

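The 1785 higher and 1324 lower genes became 3560 and 2282 at any fold, 2225 and 2294 at 2-fold without regard to overlap, 540 and 401 at 4-fold, and 1049 and 1010 with a mean of at least 5 FPKM. Against 3 of the 9 libraries alone they were 2577 and 3178 (5, 6 and 7), 2853 and 2116 (2, 3 and 11) and 2375 and 2147 (1, 4 and 12). Leaving out 1 library gave 1625 to 1869 higher and 1298 to 1820 lower genes, the last without somatic embryo 8. Leaving out whole sets of the 9, added after the data had been seen, gave 1998 to 2205 higher and 1397 to 1950 lower genes. Fewer libraries make overlap rarer. The difference in the share of the top genes, 2.43 percentage points for the top 10, was 1.25 for the top gene, 2.83 for the top 100 and -0.66 for the top 1000, and 2.26 to 2.55 when 1 library was left out. The median over all genes, 0.054, was -0.012 after median-of-ratios scaling and 0.10 on the TPM scale, and 0.018 to 0.071 when 1 library was left out. The difference in genes detected at 1 FPKM, 317, was 83.1 without somatic embryo 8 and 493 without 9. The same difference was 175 after median-of-ratios scaling, 195 at a limit of 0.1 FPKM and 259 at a limit of 5 FPKM. Genes 2-fold apart among the 3 libraries numbered 1382, but 2742 with a pseudocount of 0.1 and 851 with a mean of at least 5 FPKM; the cause was not tested. The 4 named genes kept their direction under all 16 settings run for each. They were picked with ranges already apart, so leaving out a library or changing the pseudocount could not reverse them. Only the changes of scaling could have done so. No paired analysis was possible because the 3 and the 9 libraries share no replicate number and no test was made. What read depth limits among weakly expressed genes is not known.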

Other observations

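Called genes often had neighbours by ID number with the same call. Of the 1785 genes higher in somatic embryos 8, 9 and 10, 23.4% had a higher gene at the ID number just before or after, beside 10.1% of the analysed genes that were not higher. Of the 1324 lower genes 19.7% had a lower neighbour, beside 7.92% of the others. Runs of 3 or more consecutive IDs occurred 34 times among higher genes, the longest with 5, and 14 times among lower genes, the longest with 4. Genes that sit side by side may be copies of each other, between which reads can be shared; this was not tested, and the sources used here do not say what the order of the IDs stands for. Neither direction gathered under a single ID prefix: over the 13 prefixes, 7.62% to 9.55% of analysed genes were higher and 4.72% to 7.58% lower.

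The 100 genes with the highest mean in the other 9 libraries included 14 that were lower in somatic embryos 8, 9 and 10 and 8 that were higher, where 6.31% of all analysed genes were lower and 8.51% higher. The 100 highest in the 3 libraries included 26 higher genes and 1 lower gene. Ranking by the mean of a group favours genes that are high in it, so these counts describe the lists and nothing beyond them.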
